A study of Mus musculus with 6 samples.

Results

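The genes described here are 10 genes that mark or direct alternative macrophage activation, the state that macrophages take up under the type 2 cytokines IL-4 and IL-13. They were matched by symbol to the Ensembl identifiers of the count tables, and all 10 of 10 were found among 55487 identifiers: Arg1, Retnla, Il10, Il4ra, Il1rn, Mgl2, Clec10a, Trem2, Pparg and Pdcd1lg2. RNA was sequenced from Cd11b-enriched non-myocyte cells of mouse heart, a preparation made with magnetic beads against the myeloid integrin Cd11b. All mice were on the C57BL/6 strain. The 3 control pools (WT) carried a floxed Egfr gene (Egfr f/f) with no deletion named in the labels. The 3 deleted pools (KO) are labelled Egfr mKO and EGFR -/- (myeloid-specific), and lacked the epidermal growth factor receptor gene in myeloid cells. Each pool joined the hearts of 5 or 6 animals, so the pool was the replicate and its level is an average over animals. The sources used here do not name the Cre line or the age and sex of the animals.

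IL-4 and IL-13 bind receptors that share the IL-4 receptor alpha chain, encoded by Il4ra, and activate the transcription factor STAT6. STAT6 target genes in mouse macrophages include Arg1, Retnla, Mgl2 and Pdcd1lg2, and the nuclear receptor PPAR-gamma, encoded by Pparg, acts beside STAT6 on lipid and activation genes. Il10 and Il1rn encode secreted proteins that restrain inflammation, while Trem2 encodes a lipid-binding receptor of tissue macrophages. Resident macrophages of the heart express several of these genes without added cytokine.

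STAT6 binds the letters TTCNNNNGAA, which read the same on both strands, and other STAT proteins bind TTCNNNGAA. RefSeq promoters of GRCm38.p6 (250 bases before to 50 after a gene's start) were given for 7 of the 10 genes. Arg1, Il10 and Clec10a were not matched. TTCNNNNGAA was found for 3 of the 7, Retnla, Il1rn and Pdcd1lg2, and for 8.01% of all 27025 genes with such promoters (6.95% of 32851 promoters, since a gene can have several). TTCNNNGAA was found for 0 of the 7 and for 9.55% of all genes. The stretches that hold it are shown up to the next annotated exon with the motif in capitals, all on the plus strand and 5′ to 3′. Those of Retnla and Pdcd1lg2 precede the whole gene, while that of Il1rn lies inside the gene before an inner start, and the promoter before the first exon of Il1rn held no such letters. In Retnla (chr16:48842359-48842550) the motif began 145 bases before the RefSeq start, in Il1rn (chr2:24345041-24345287) 121 bases before the inner start, and in Pdcd1lg2 (chr19:29410669-29410918) 82 bases before the start.
Retnla: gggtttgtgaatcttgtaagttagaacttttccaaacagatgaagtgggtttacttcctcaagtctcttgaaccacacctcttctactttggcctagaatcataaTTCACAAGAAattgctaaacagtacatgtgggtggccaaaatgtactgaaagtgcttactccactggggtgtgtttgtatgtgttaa
Il1rn: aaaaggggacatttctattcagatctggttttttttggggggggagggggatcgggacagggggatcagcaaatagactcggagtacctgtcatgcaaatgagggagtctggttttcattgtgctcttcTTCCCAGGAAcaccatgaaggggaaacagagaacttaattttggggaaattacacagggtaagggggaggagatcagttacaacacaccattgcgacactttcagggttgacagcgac
Pdcd1lg2: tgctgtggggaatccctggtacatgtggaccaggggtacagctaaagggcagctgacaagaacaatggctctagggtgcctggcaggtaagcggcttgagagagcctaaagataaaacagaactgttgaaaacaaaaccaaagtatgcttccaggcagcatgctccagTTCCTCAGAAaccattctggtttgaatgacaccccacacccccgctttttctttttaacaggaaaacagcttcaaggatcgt
The match describes these letters only, and binding was not measured. The log2 fold changes of the 3 genes with the motif, KO against WT, were 0.50, -0.04 and 0.21 in the order shown, and none passed the test.

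Mgl2 and Clec10a encode the mouse macrophage galactose-type lectins CD301b and CD301a. They are neighbours on chromosome 11, Mgl2 at 70130329 to 70137550 and Clec10a at 70156197 to 70170834, both on the plus strand of GRCm38 (GENCODE M21). Their transcripts share an unbroken run of 183 bases, all of it coding, in Mgl2 (chr11:70136337-70136699) and in Clec10a (chr11:70169822-70170189). It is shown because a read lying inside it fits both genes. Capitals mark an exon of 152 bases that is identical in both.
Shared run: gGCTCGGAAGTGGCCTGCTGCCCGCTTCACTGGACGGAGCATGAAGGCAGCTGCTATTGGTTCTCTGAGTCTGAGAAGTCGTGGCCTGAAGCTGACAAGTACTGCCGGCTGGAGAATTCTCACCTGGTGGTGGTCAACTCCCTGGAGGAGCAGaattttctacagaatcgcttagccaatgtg
Of all distinct windows of 100 bases in Mgl2 transcripts, 3.95% also occurred in Clec10a, and of those in Clec10a 2.64% occurred in Mgl2. With windows of 50 bases the shares were 12.2% and 8.49%. Reads that aligned to several places were set aside in a counter of their own, so both lectin genes may be undercounted by a share of this order, and the sources used here do not state the read length.

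In the same annotation Arg1 lies on the minus strand and the other genes on the plus strand. The secreted proteins are encoded by Retnla (ENSMUSG00000061100) at 48842551 to 48844461 of chromosome 16, Il10 (ENSMUSG00000016529) at 131019845 to 131024974 of chromosome 1 and Il1rn (ENSMUSG00000026981) at 24336853 to 24351494 of chromosome 2. The surface proteins are encoded by Il4ra (ENSMUSG00000030748) at 125552120 to 125579474 of chromosome 7, Trem2 (ENSMUSG00000023992) at 48346401 to 48354147 of chromosome 17 and Pdcd1lg2 (ENSMUSG00000016498) at 29410919 to 29471161 of chromosome 19. The enzyme and the nuclear receptor are encoded by Arg1 (ENSMUSG00000019987) at 24915221 to 24927484 of chromosome 10 and Pparg (ENSMUSG00000000440) at 115360951 to 115490399 of chromosome 6. Mgl2 and Clec10a are ENSMUSG00000040950 and ENSMUSG00000000318.

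The libraries held 17780707 to 27485129 reads in genes. Egfr was at 47.5 ± 6.29 CPM for WT and 17.3 ± 1.29 CPM for KO (SD, n = 3 each), and the myeloid lysozyme gene Lyz2 at 5034 ± 1449 and 18.6 ± 1.06 CPM, both lower in KO (edgeR adjusted p = 0.0449 and 0.000178). The KO level was 36.4% of WT for Egfr and 0.370% for Lyz2. Every KO pool was low in both genes, so their parts in other differences were not tested and cannot be told apart. The summed level of 24 resident macrophage genes was 23192, 13157 and 16019.9 CPM in WT replicates 1 to 3 and 22982, 23231 and 23768 CPM for KO replicates 1 to 3, so WT replicate 1 lay with the KO pools. All 24 had a positive log2 fold change, with a median of 0.43, and 0 passed the test in edgeR (6 at an unadjusted p under 0.05, where 4.77% of all genes were higher). The summed level of 12 endothelial genes was 2511 to 4181 CPM for WT and 1428 to 1845 CPM for KO. Summed over 4 Y-linked genes, WT replicate 1 and KO replicate 1 were at 240.2 and 234 CPM and the other 4 pools at 0.0931 to 0.938 CPM. In bulk RNA of this kind, fewer cells of a type and less RNA per cell cannot be told apart.

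Per kilobase of exon, the 10 genes spanned more than 3 orders of magnitude in both genotypes. In WT this depends on the length taken: by longest transcript, Retnla was at 796 and Arg1 at 0.979 CPM per kb. Retnla, which encodes the secreted protein RELM-alpha, was highest, with 796 ± 347 CPM per kb in WT and 1123 ± 248 in KO (SD, n = 3 each). Mgl2 came next with 189 ± 46.3 and 266 ± 22.2 CPM per kb, and every pool of Mgl2 lay below every pool of Retnla in both genotypes. Il4ra followed with 71.4 ± 23.3 CPM per kb in WT and 75.4 ± 21.4 in KO, and it overlapped the range of Clec10a (43.6 ± 17.4 and 66.6 ± 5.12 CPM per kb) in each genotype. Il1rn, at 29.7 ± 8.59 CPM per kb in WT, overlapped both Clec10a above it and Il10 below it (20.6 ± 4.13 CPM per kb), so these neighbours did not differ beyond their spread in WT. In KO the ranges of Clec10a and Il1rn were separate. Both statements on Il1rn depend on its length, 5535 bases of exon but 2554 in its longest transcript. With the longest transcript, Il1rn lay above Il10 in every WT pool (51.3 to 85.6 and 16.4 to 24.6 CPM per kb). In KO, Clec10a and Il1rn then overlapped (75.5 to 87.2 and 35.4 to 85.6 CPM per kb). Trem2 and Pparg overlapped in WT (9.89 ± 2.16 and 7.84 ± 0.714 CPM per kb) and were separate in KO (14.0 ± 0.939 and 6.21 ± 0.557 CPM per kb). The lowest were Pdcd1lg2, at 1.44 ± 0.510 CPM per kb in WT, and Arg1, at 0.649 ± 0.361. Arg1, the best known mark of alternatively activated mouse macrophages in culture, was thus counted only 13 to 44 times per library.

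**Figure D1:**
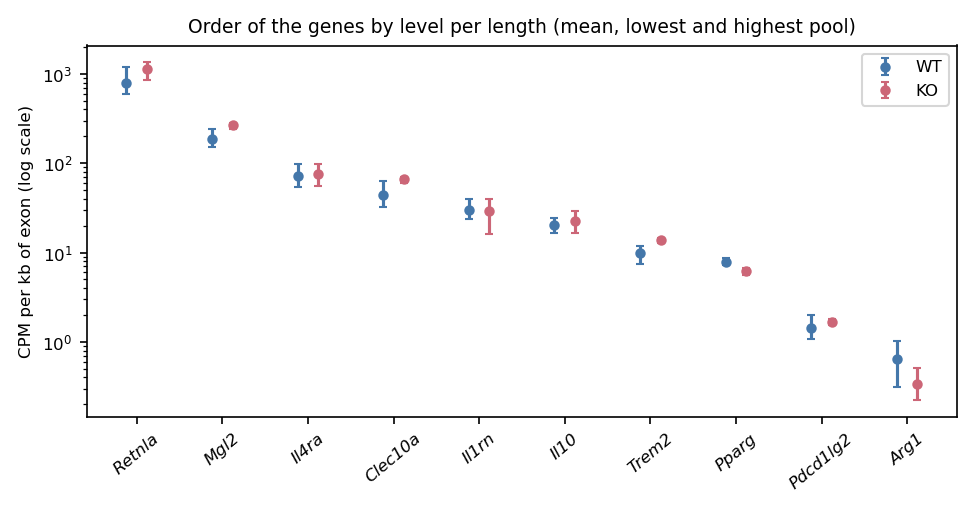
Level of each gene in CPM per kb of exon on a log axis, with the mean as a point and the lowest and highest of 3 pools as whiskers, WT and KO side by side. Retnla sits highest and Arg1 lowest in both genotypes, and the order of the genes is the same in WT and KO.

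All 10 genes passed the filter on low counts, and 0 of 10 differed between KO and WT in edgeR at an adjusted p under 0.05, where 0.0127% of the 15707 genes tested did. The count was also 0 with DESeq2 (background 5.51%), with limma-voom (0.00637%) and in edgeR without its filter (2.7%). The median log2 fold change of the 10 genes was 0.18, beside 0.007 over all genes tested. 7 of 10 had a positive log2 fold change, as did 50.8% of all genes tested. At an unadjusted p under 0.05, 3 genes were on the higher side (Mgl2, Clec10a and Trem2), where 4.77% of all genes were, and 1 on the lower side (Pparg), where 10.6% were. The pools did not overlap for 2 of 10: every KO pool was above every WT pool for Trem2 (9.59% of all genes), and every KO pool was below every WT pool for Pparg (10.1% of all genes).

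**Figure D2:**
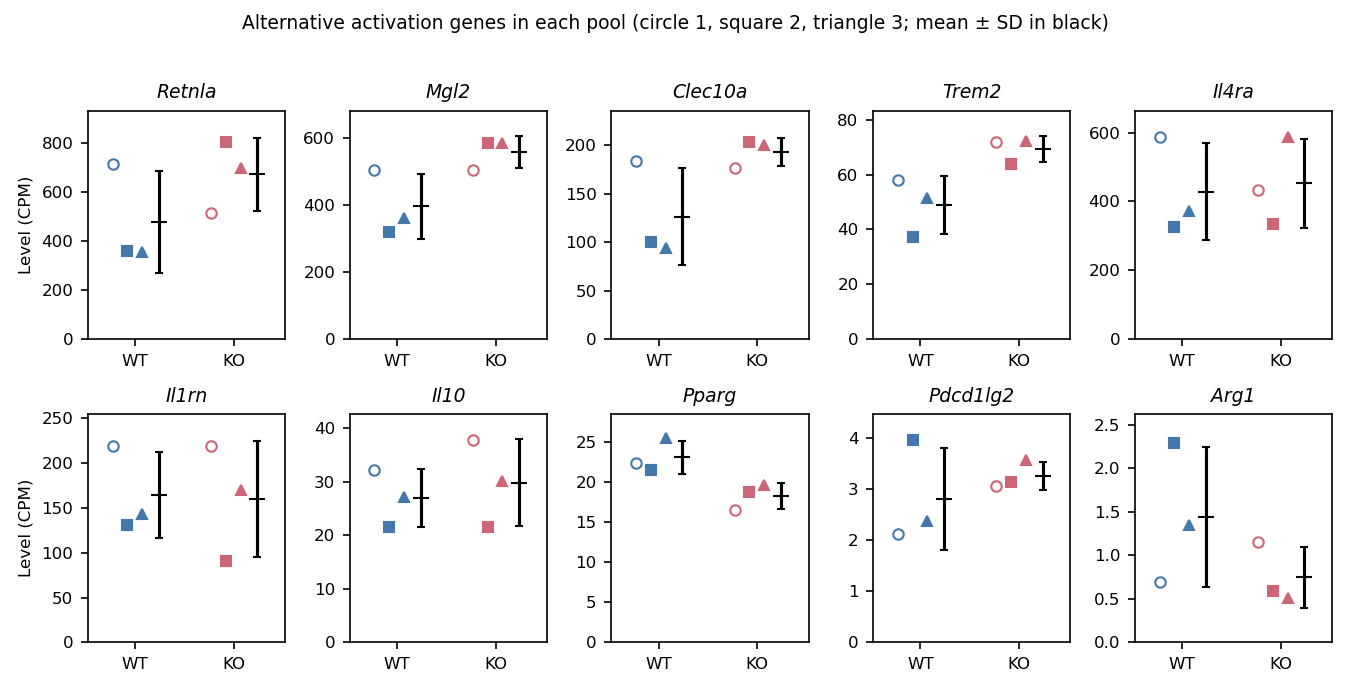
Level of each gene in CPM in the 3 WT and 3 KO pools, with circles, squares and triangles for replicates 1, 2 and 3 and the mean ± SD in black; open circles are WT replicate 1 and KO replicate 1, the pools with Y-linked reads. The KO pools of Trem2 all lie above, and those of Pparg all lie below, the WT pools, while the other 8 genes overlap.

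Retnla, Mgl2, Clec10a and Trem2 had the higher means in KO, each about 1.4 to 1.5 times the WT level, without passing the test. Clec10a was at 184, 100.4 and 94.1 CPM in WT replicates 1 to 3 and at 176, 203 and 199.9 CPM for KO replicates 1 to 3. WT replicate 1 lay inside the KO range, and the other WT pools lay far below it. The means were 126 ± 50.4 CPM for WT and 193 ± 14.8 CPM for KO (SD, n = 3 each), a log2 fold change of 0.61 (SE 0.25, adjusted p = 0.305 in edgeR).

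Mgl2 showed the same arrangement, with 505, 319.7 and 361 CPM for WT and 503, 585 and 583 CPM for KO. WT replicate 1 exceeded KO replicate 1 by a small margin, and these were the only pools that broke the separation. Its log2 fold change was 0.50 (SE 0.19, adjusted p = 0.28 in edgeR). The ratio of Mgl2 to Clec10a per kb was 3.96 to 4.04 in the 3 KO pools and 3.79 to 5.31 in the WT pools, so the lectin pair kept nearly a constant proportion in KO.

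Retnla was at 717, 359.8 and 354 CPM for WT and 513, 806 and 699.7 CPM for KO. Here WT replicate 1 was the second highest of all 6 pools and KO replicate 1 the lowest of the KO pools. The log2 fold change was 0.50 (SE 0.31, adjusted p = 0.486 in edgeR). Of its family, Retnlb was counted 0 times in every library, which allows up to 3 reads per library, Retn 1 to 20 times, and Retnlg, a gene of neutrophils, was at 31.4 to 69.5 CPM for WT and 25.8 to 147 CPM for KO.

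Trem2 was at 58.2, 37.2 and 51.4 CPM for WT and 71.9, 64.0 and 72.1 CPM for KO. No KO pool reached down to the WT range. The log2 fold change was 0.50 (SE 0.17, adjusted p = 0.242 in edgeR). Tyrobp, the adaptor through which Trem2 signals, was at 461, 259.8 and 285 CPM for WT and 533, 425 and 469.9 CPM for KO (log2 fold change 0.51, SE 0.23, adjusted p = 0.35 in edgeR). The KO pools were also closer to each other than the WT pools. The coefficient of variation was 6.70% in KO and 21.9% in WT for Trem2, 7.68% and 39.9% for Clec10a, and 8.35% and 24.6% for Mgl2. Resident macrophage genes such as Adgre1 (3.77% and 31.7%) and Csf1r (4.63% and 29.8%) did likewise, while Maf (25.1% and 20.5%) did not.

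The outcome for this group turned on WT replicate 1. Without it, edgeR called 3 of the 10 genes higher in KO, where 2.33% of all genes were called higher: Clec10a (0.99, adjusted p = 0.0136), Mgl2 (0.72, adjusted p = 0.0274) and Retnla (0.92, adjusted p = 0.0375). Trem2 had 0.65 (adjusted p = 0.0527) and did not pass. The same fit called 12 of the 24 resident macrophage genes higher, so these calls were not particular to the 10 genes. Leaving out any other library called 0 of the 10. Without WT replicate 2 or WT replicate 3 the Retnla log2 fold change was 0.32 in each case.

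The same split appeared between pools with and without Y-linked reads. Between WT replicate 1 and KO replicate 1, which hold Y-linked reads and give no test with 1 pool each, KO over WT was 0.715 for Retnla, 0.998 for Mgl2, 0.955 for Clec10a and 1.24 for Trem2. Between the other 4 pools the ratios of means were 2.11 for Retnla, 2.07 for Clec10a, 1.72 for Mgl2 and 1.54 for Trem2. The summed macrophage genes moved alike, with a ratio of 0.991 in the first pair and 1.61 in the other pools. In a fit of those 4 pools alone, added after seeing the data, edgeR called Retnla (1.04) and Clec10a (1.02) higher (adjusted p = 0.0407 for both), where 0.4% of all genes were, and not Mgl2 (0.75, adjusted p = 0.0518). The fit of 4 pools also called 3 of the 24 resident macrophage genes higher. With Y-linked reads as a covariate 0 of the 10 passed, where 0.0191% of all genes did. The part that the sex of the animals or macrophage RNA has in these differences was not tested.

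**Figure D3:**
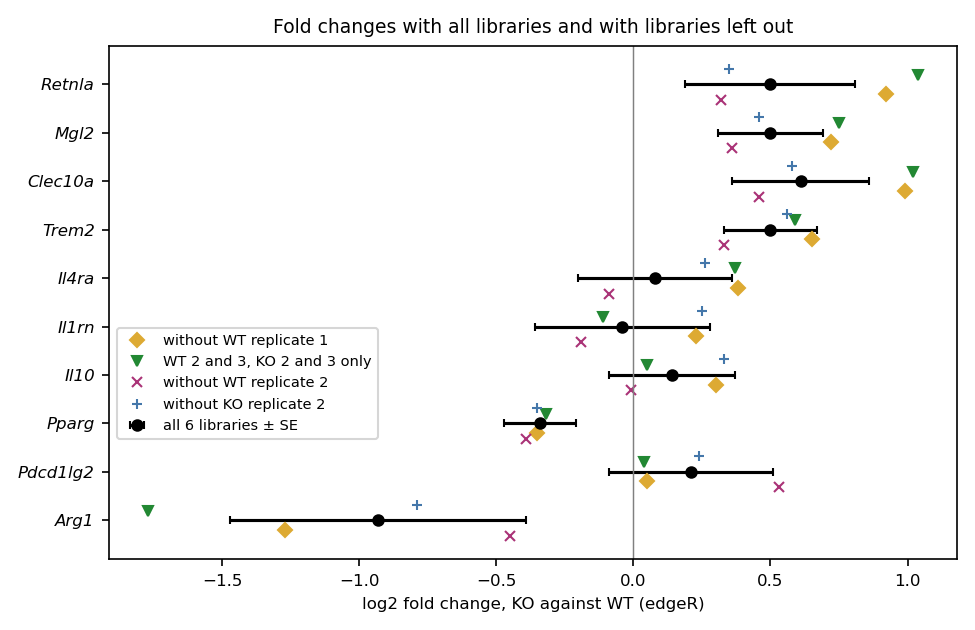
Log2 fold change of each gene, KO against WT, from edgeR with all 6 libraries (black, ± SE) and from fits that leave libraries out (coloured symbols). For Retnla, Mgl2 and Clec10a the fits without WT replicate 1 lie at 0.72 to 0.99 and those without WT replicate 2 at 0.32 to 0.46, while those drawn for Pparg lie between -0.39 and -0.32 (-0.40 to -0.26 over all 6 left-out libraries).

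Set against macrophage RNA, the same 4 genes lay close together in the 2 genotypes. Per 1000 reads of the 24 resident macrophage genes, Mgl2 had 21.8, 24.3 and 22.5 reads in WT and 21.9, 25.2 and 24.5 reads in KO. Trem2 had 2.85 ± 0.348 in WT and 2.97 ± 0.195 in KO (SD, n = 3 each), and Clec10a 7.15 ± 1.12 and 8.27 ± 0.557. Retnla had 26.8 ± 4.44 and 28.8 ± 6.22, and its lowest values were KO replicate 1 and WT replicate 3 (22.3 and 22.1). The pools overlapped for all 4, and the log2 ratio of KO to WT means was 0.06 for Mgl2 and Trem2, 0.21 for Clec10a and 0.11 for Retnla. Against C1qa, C1qb and C1qc alone these log2 ratios were -0.11, -0.11, 0.04 and -0.06.

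Centred profiles over the 6 pools were compared between genes. Likeness was measured as the root mean square difference of log2 CPM, each gene centred on its own mean, over 257 genes of the lists. Closest to Mgl2 were Casp1 (0.034) and the macrophage carbonyl reductase Cbr2 (0.056). Closest to Trem2 were the macrophage elastase Mmp12 (0.052) and the Fc receptor Fcgr1 (0.089), and closest to Clec10a were Timd4 (0.135), a phosphatidylserine receptor of resident macrophages, and Irf5 (0.14), a transcription factor of the classical activation list. Retnla stood nearest to the lectin Cd209d (0.145) and the chemokine Ccl24 (0.159). These distances describe 6 pools that share the same tissue preparation.

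**Figure D4:**
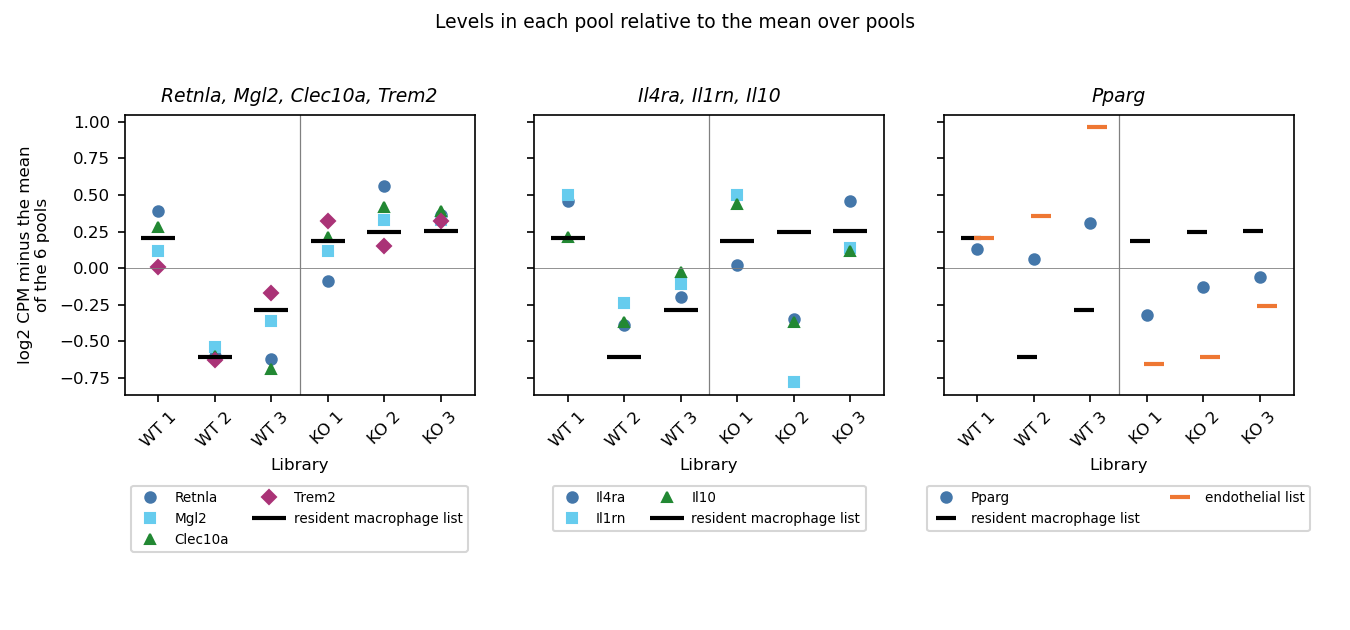
Log2 CPM of each gene in each library minus its mean over the 6 libraries, with bars for the mean of the resident macrophage list and, at right, of the endothelial list. Retnla, Mgl2, Clec10a and Trem2 are low in WT replicates 2 and 3, Il4ra and Il10 are low in WT replicate 2 and KO replicate 2 alike, Il1rn is lowest in KO replicate 2, and Pparg is lower in the 3 KO libraries.

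Il4ra, Il1rn and Il10 did not separate by genotype, and the differences among pools of 1 genotype were as large as those between genotypes. Il4ra was at 588, 325 and 373 CPM for WT and 433, 335 and 589 CPM for KO, so the lowest and the highest pools of each genotype lay at nearly the same values. Its log2 fold change was 0.08 (SE 0.28, adjusted p = 0.924 in edgeR). Gm44876, an antisense gene that overlaps exons of Il4ra, was counted 0 to 3 times per library.

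Il1rn, which encodes the antagonist that occupies the interleukin 1 receptor without signalling, was at 219, 131 and 143 CPM for WT and 219, 90.4 and 170.0 CPM for KO (log2 fold change -0.04, SE 0.32, adjusted p = 0.964 in edgeR). KO replicate 2 was lowest of all. Il1b, the agonist it opposes, was at 1645 CPM in WT replicate 1 and 2155 CPM for KO replicate 1, and at 785 to 1034 CPM in the other pools. Per kb of exon, Il1b exceeded Il1rn by 16.6 to 28.6 times in every pool, a ratio that depends on the length taken for Il1rn. Summed neutrophil genes were highest in the same pair of pools, 2421 CPM in WT replicate 1 and 2906 CPM for KO replicate 1 beside 631 to 1194 CPM in the others. S100a8 and S100a9 followed the sum, with 579 and 1003 CPM for KO replicate 1 beside 219 and 328 CPM in WT replicate 2. Ltf, Camp and Ngp of the same list did not, with 21.0, 3.93 and 29.9 CPM beside 91.6, 17.5 and 93.0 CPM in those pools. The part of neutrophils in the Il1rn and Il1b levels was not tested.

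Il10, which encodes the anti-inflammatory cytokine interleukin 10, was at 32.3, 21.5 and 27.2 CPM for WT and 37.8, 21.5 and 30.2 CPM for KO (log2 fold change 0.14, SE 0.23, adjusted p = 0.809 in edgeR). The receptor genes Il10ra (log2 fold change 0.43, SE 0.18) and Il10rb (0.39, SE 0.15) did not pass either, and every KO pool of Il10rb lay above every WT pool (62.7 to 91.2 CPM in WT, 94.4 to 105 CPM for KO). All 3 of Il4ra, Il1rn and Il10 changed sign when single libraries were left out, within -0.17 to 0.38 for Il4ra, -0.33 to 0.25 for Il1rn and -0.06 to 0.33 for Il10.

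Relative to macrophage reads, this group had lower means in KO. Il1rn had 9.43, 9.95 and 8.93 reads per 1000 macrophage reads in WT and 9.52, 3.89 and 7.15 in KO. The WT pools were within a narrow band, and KO replicate 1 stood inside it. For Il4ra the values were 24.5 ± 1.05 in WT and 19.4 ± 5.21 in KO (SD, n = 3 each), and for Il10 1.57 ± 0.162 and 1.28 ± 0.360. The pools overlapped for all 3 on this scale, and against C1qa, C1qb and C1qc alone the 3 KO pools all lay below the WT pools for Il4ra and Il1rn.

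**Figure D5:**
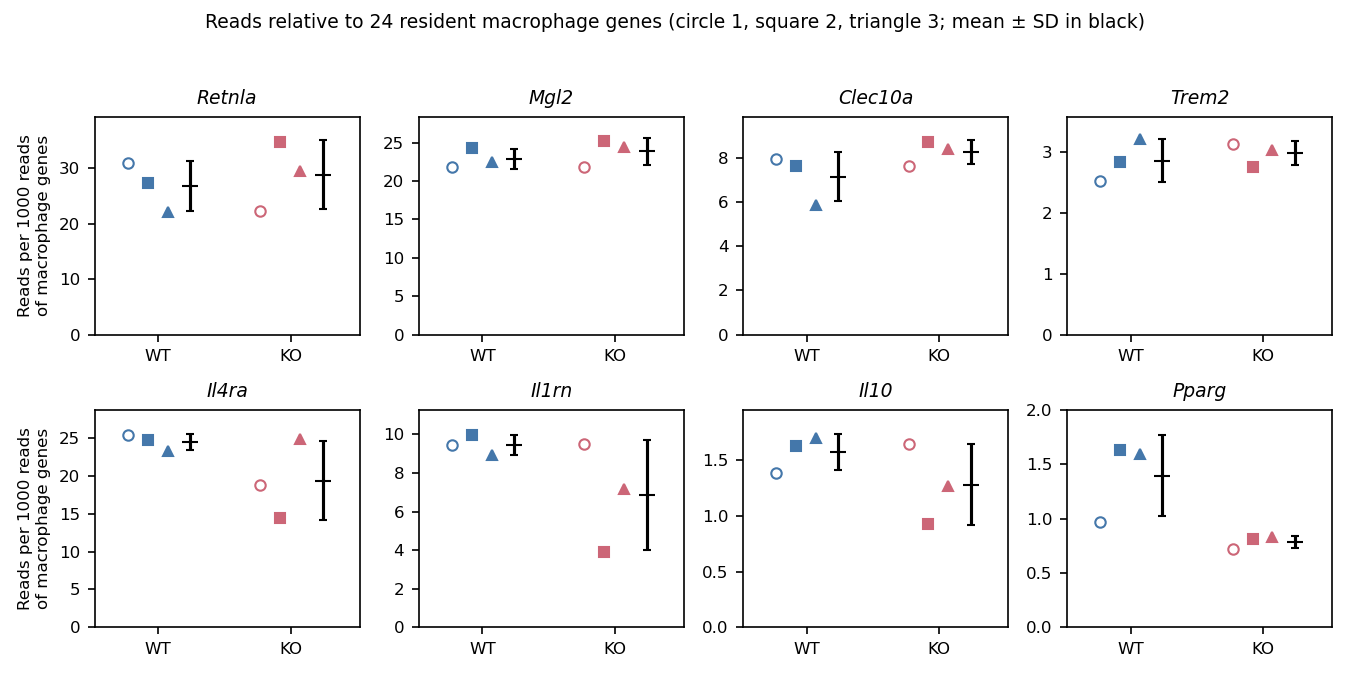
Reads of 8 genes per 1000 reads of 24 resident macrophage genes in each library, with circles, squares and triangles for replicates 1, 2 and 3 and the mean ± SD in black. Mgl2, Clec10a, Trem2 and Retnla overlap between genotypes on this scale, and Pparg is the only gene of the 8 whose KO pools all lie below the WT pools.

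Pparg, the nuclear receptor of the group, was the only one of the 10 genes with every KO pool below every WT pool. It was at 22.4, 21.5 and 25.5 CPM for WT and 16.5, 18.8 and 19.7 CPM for KO. The mean was 23.1 ± 2.11 CPM for WT and 18.3 ± 1.64 CPM for KO (SD, n = 3 each), which is a level in KO of 79.2% of WT. At -0.34 on the log2 scale (SE 0.13), the difference missed the threshold (adjusted p = 0.293 in edgeR). Its sign was the same in both kinds of pool, with KO over WT at 0.736 in the pair with Y-linked reads and 0.819 in the other pools. Per 1000 macrophage reads it was 1.40 ± 0.373 in WT and 0.785 ± 0.0590 in KO. The pools did not overlap on this scale either, which largely follows from the CPM values, since macrophage reads were mostly higher in KO.

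The list of PPAR partners and targets held 16 genes, all of them tested, and 0 passed in edgeR (4 at an unadjusted p under 0.05, all lower, where 10.6% of all genes were). The median log2 fold change was -0.12. Cd36, the fatty acid and oxidised lipid receptor, had the profile nearest to Pparg (0.053) and was at 974, 894 and 1055 CPM for WT and 690.4, 746 and 763 CPM for KO. Pdk4, an inhibitor of pyruvate oxidation, had the log2 fold change -1.19 (SE 0.25), Fabp4, a lipid carrier, -1.03 (SE 0.25), and Angptl4, an inhibitor of lipoprotein lipase, -0.88 (SE 0.19). The KO pools of these 4 genes all lay below the WT pools. Over the list this held for 5 of 16 genes, beside 10.1% of all genes. DESeq2 called 4 genes of the list lower, where 4.39% of all genes were. Of the 16 genes 7 had positive log2 fold changes. Rxrb (0.22, SE 0.11) and Nr1h3 (0.32, SE 0.15), which encodes the sterol receptor LXR-alpha, had all KO pools above the WT pools (9.59% of all genes). Rxra, the partner of PPAR-gamma on DNA, was at 91.9 to 132 CPM for WT and 121 to 134 CPM for KO, and the ratio of Rxra to Pparg per kb was 2.31 to 3.01 in WT and 3.32 to 4.40 in KO. Pparg, Cd36 and Fabp4 are also expressed by endothelial cells, whose 12 marker genes were all lower at an unadjusted p under 0.05 in the same KO pools (median -1.08), and the part of endothelial RNA in these values was not tested. Adipocyte markers were scarce, with 1 of 8 above the filter on low counts.

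Pdcd1lg2, which encodes the PD-1 ligand PD-L2 of dendritic cells and alternatively activated macrophages, was counted 51 to 92 times per library. It was at 2.12, 3.96 and 2.37 CPM for WT and 3.06, 3.14 and 3.57 CPM for KO, so WT replicate 2 was the highest of the 6 pools and the other WT pools the lowest. The log2 fold change was 0.21 (SE 0.30, adjusted p = 0.78 in edgeR). The related ligand Cd274 exceeded it per kb by 9.19 to 17.5 times, with a log2 fold change of 0.05 (SE 0.13). Nearest to Pdcd1lg2 in profile were the peptidase Dpp4 (0.151), from the dendritic cell list, and the chemokine Ccl17 (0.201). Dpp4 too was highest in WT replicate 2 (44.1 CPM). In that pool 8 T cell markers summed to 544 CPM, beside 26.9 to 222 CPM in the other pools, and the part of T cells was not tested. The summed level of 12 dendritic cell markers was at 412 to 491 CPM for WT and 504 to 580.4 CPM for KO, with no overlap, unlike Pdcd1lg2 itself. Of the 12 markers 8 had positive and 4 negative log2 fold changes, and 3 had all KO pools above the WT pools (9.59% of all genes).

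Arg1, which encodes the arginase that turns arginine into ornithine, was at 0.693, 2.29 and 1.35 CPM for WT and 1.15, 0.589 and 0.505 CPM for KO. The pools overlapped, since WT replicate 1 was below KO replicate 1. The log2 fold change was -0.93 (SE 0.54, adjusted p = 0.455 in edgeR) and lay between -1.38 and -0.45 on leaving out 1 library. The pools with and without Y-linked reads were opposed: KO over WT was 1.65 between WT replicate 1 and KO replicate 1 and 0.300 between the other pools. A fit of those 4 libraries gave -1.77 (adjusted p = 0.148 in edgeR). The coefficient of variation between pools was 55.7% in WT and 46.7% in KO. Nearest to Arg1 in profile were Vcan (0.309), from the monocyte list, and Krt19 (0.35), from the mesothelial list. Arg2, the mitochondrial arginase, exceeded Arg1 per kb in every pool, by 6.06 to 50.9 times. Nos2, whose product competes with arginase for arginine and marks classical activation, was at 13.4, 14.0 and 24.5 CPM for WT and 4.01, 7.74 and 9.70 CPM for KO, with no overlap (log2 fold change -1.28, SE 0.36, adjusted p = 0.217 in edgeR). Odc1, which takes ornithine on to polyamines, had -0.46 (SE 0.13), also with every KO pool below every WT pool.

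Genes of the IL-4 and IL-13 pathway itself were present at the level of receptors and signal carriers, while the cytokines were barely counted. Il4 had 2 to 7 reads per library and Il13 1 to 9 reads, both below the filter on low counts. Of eosinophil, basophil and mast cell markers, which include genes of cells that make these cytokines, 8 of 14 passed that filter. Prg2, Prg3, Mcpt8, Fcer1a, Ms4a2 and Epx did not, and Epx was at 0 in every library. Of 15 genes of IL-4 and IL-13 signalling 12 were tested and 0 passed in edgeR (5 at an unadjusted p under 0.05, 3 higher and 2 lower), with a median log2 fold change of 0.03. Over all genes 4.77% were higher and 10.6% lower at that unadjusted level. Stat6 was at 264, 222 and 214 CPM for WT and 314, 282 and 276 CPM for KO, with no overlap (log2 fold change 0.32, SE 0.13, adjusted p = 0.305 in edgeR). Il2rg, the common gamma chain, had 0.35 (SE 0.14), and Il13ra1, the other chain of the IL-13 receptor, 0.22 (SE 0.14). Ptpn6, a phosphatase that dampens cytokine receptors, had 0.50 (SE 0.17), while the feedback inhibitor Socs1 had -0.66 (SE 0.23).

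Of 25 other genes that IL-4 induces, 24 were tested and 0 passed in edgeR (6 at an unadjusted p under 0.05, all higher, where 4.77% of all genes were). The median log2 fold change was 0.09. Alox15, a lipoxygenase, was at 32.4, 22.9 and 34.3 CPM for WT and 131, 343 and 52.2 CPM for KO, with no overlap (log2 fold change 2.55, SE 0.60, adjusted p = 0.185 in edgeR). It also marks macrophages of the serous cavities. Of the 10 marker genes of those cells, itself included, 5 had all KO pools above the WT pools (9.59% of all genes). Among these Prg4 was at 41.0 to 64.5 CPM for WT and 66.2 to 311 CPM for KO. The other 5 overlapped, and 3 of them had negative log2 fold changes, Gata6, the defining factor of these cells (-0.76, SE 0.35), Itga6 (-0.39, SE 0.22) and Icam2 (-0.14, SE 0.23). The part of such macrophages in the Alox15 values was not tested. Il4i1, an amino acid oxidase, had 1.39 (SE 0.34) and the chemokine Ccl22 0.79 (SE 0.27), both with the KO pools all above the WT pools. Mrc1, the mannose receptor, and Chil3, the secreted protein Ym1, had 0.30 (SE 0.22) and -0.03 (SE 0.51). DESeq2 called 2 genes of this list higher, where 1.13% of all genes were. The count was 3 in edgeR with no filter on low counts (0.479% of all genes), and 4 when WT replicate 1 was left out (2.33%).

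Among 15 genes of classical activation, 0 passed in edgeR. At an unadjusted p under 0.05, 1 was higher and 1 lower, beside 4.77% and 10.6% of all genes. The median log2 fold change was 0.20, beside 0.18 for the 10 genes of alternative activation. Nos2 as above and Il12b (log2 fold change 1.05, SE 0.27), a subunit of interleukins 12 and 23, had opposite signs, each without overlap between pools. Il6 (-0.46, SE 0.22) and Tnf (-0.19, SE 0.23) had negative values and overlapped.

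Of the lists around single genes, 0 members passed in edgeR either. At an unadjusted p under 0.05, 4.77% of all genes were higher and 10.6% lower. For the interleukin 10 pathway 2 of 9 tested genes were at an unadjusted p under 0.05, both higher, with a median log2 fold change of 0.22. For the interleukin 1 family the count was 2 higher and 2 lower of 11, with a median of 0.11. Il1r1, the receptor that the Il1rn product occupies, was at 27.9, 40.9 and 49.2 CPM for WT and 26.9, 20.6 and 23.3 CPM for KO, with no overlap (log2 fold change -0.74, SE 0.21, adjusted p = 0.221 in edgeR). The 10 fibroblast markers were all lower at an unadjusted p under 0.05 too (median -1.13). They summed to 2228, 4525 and 7031 CPM for WT and 2469.5, 2137 and 1681 CPM for KO. The part of fibroblast RNA in the Il1r1 values was not tested. Il1a and the decoy receptor Il1r2 overlapped between genotypes, with -0.24 (SE 0.22) and 0.36 (SE 0.48). Around Trem2 it was 1 higher of 14, with a median of 0.31, and for the checkpoint ligands 0 of 8, with a median of 0.12. Of other C-type lectins 2 of 13 were higher at that level (4.77% of all genes), with a median of 0.41, and without WT replicate 1 edgeR called 5 of them higher (2.33% of all genes). Of 10 genes of arginine metabolism 1 was higher and 2 lower at that level, with a median of 0.15.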

How the data were processed

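The authors deposited raw counts, whole numbers of reads for every Ensembl identifier, with 1 file for each of 6 libraries. The submitters' processing notes list STAR, HTSeq, DESeq2 and GRCm38. The sources used here do not state versions, the annotation release or the strand setting. The 5 counters that name no gene were left out of library sizes. They held 5.90% to 8.62% of all counted reads outside genes, 1.49% to 1.72% in several genes and 7.58% to 8.67% aligned to several places. Symbols came from a gene name table (55141 of 55487 identifiers), and positions and exon lengths from GENCODE M21.

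KO was compared with WT over all genes with edgeR 4.0.16 in R 4.3.3: filterByExpr (minimum count 10, 15707 genes kept), TMM scaling, the quasi-likelihood F test with genotype as the only term, two-sided p-values adjusted by Benjamini-Hochberg over all genes tested, threshold 0.05. Levels are CPM, counts scaled to the TMM library size. SE is the size of the log2 fold change over the square root of F. The p-values measure the spread between pools. The steps were tested on simulated data. Other settings were DESeq2 1.42.0, limma-voom (limma 3.58.1), other scalings and filters, a replicate block and each library left out. The 2 settings on Y-linked reads and the ratios between genes were added after seeing the data.

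The 10 genes and all lists were chosen with earlier results of these data known. Named beside them were direct partners fixed by rule, up to 4 genes per list with the smallest p-values (mean CPM 1 or more), and list genes nearest in profile. The 2 nearest are given for Retnla, Mgl2, Clec10a, Trem2, Pdcd1lg2 and Arg1, and the nearest for Pparg. Those of Il10, Il4ra and Il1rn are not given. A few other list genes were named after their values were seen, to describe a list. Figures were drawn with matplotlib 3.10.9.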

Additional observations from a re-analysis of the deposited data

How the results depend on the processing

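No gene of the 10 passed the threshold with all 6 libraries under any scaling, filter or tool tried. Leaving out 1 library gave 0 to 3 of the 10 called higher and 0 called lower, and the 4 libraries with few Y-linked reads gave 2 higher. Single left-out libraries reversed 3 genes, with ranges of -0.06 to 0.33 for Il10, -0.17 to 0.38 for Il4ra and -0.33 to 0.25 for Il1rn. For the other 7 genes the sign held in every fit that gave a value; Arg1 and Pdcd1lg2 gave none at a mean CPM of at least 5.

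Over all genes edgeR called 0 higher and 2 lower. The counts were 170 higher and 661 lower with DESeq2, 139 and 643 without the filter, 63 and 344 in the 4 libraries with few Y-linked reads, 2 and 1 with the replicate block, 1 lower with limma-voom, and 0 to 376 higher and 1 to 962 lower on leaving out 1 library. Of the pathway and marker genes 0 were called, beside 10 higher and 37 lower with DESeq2, 11 and 35 without the filter, 11 and 21 in those 4 libraries, and 0 to 34 higher and 0 to 38 lower on leaving out 1 library. The causes were not tested. Samples of the same replicate number did not deviate together more than others (correlations 0.097, -0.16 and 0.006, beside -0.172 to 0.151 for unlike numbers). Replicate 1 of both genotypes did share Y-linked reads. The replicate block changed no call among the 10 genes. With the longest transcript as the length, 6 of 10 genes kept their rank in WT. Against C1qa, C1qb and C1qc alone, 1 of 10 genes had a higher mean in KO, beside 4 against the whole list. Arg1 and Pdcd1lg2 had the fewest reads, 13 to 44 and 51 to 92 per library, and the part of depth in their results was not tested.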
